A study of Mus musculus with 33 samples.

Results

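The elastic fibre and microfibril genes are a set of 10 genes, *Eln*, *Lox*, *Fbln5*, *Fbln2*, *Fbn1*, *Thsd4*, *Ltbp1*, *Ltbp2*, *Ltbp3* and *Ltbp4*, picked by name from the 41565 named entries of the deposited expression table. The choice was not blind to these data, since *Fbln5* was already known to be higher in the POA 4 months after ovariectomy (OVX). Its values in that contrast, and those of the other members there, are therefore given as a description and without a test. All 10 genes passed the filter on low values, in the 21991 genes tested in the posterior hypothalamus (PH) and in the 21360 tested in the preoptic area (POA).

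Bulk RNA-seq was done on PH and POA tissue of adult WT female mice that were intact, 14 days after OVX or 4 months after OVX, 33 libraries in all. The PH had 4 intact, 6 14-day and 6 4-month libraries, the POA had 5, 6 and 6, and the labels place libraries of every group in each of 2 batches. Sample titles call the controls sham, but another label and the study's methods call them intact and say that they were killed in diestrus before any surgery, so time after OVX and age cannot be told apart. For 1 POA library whose label reads only 14, the 14 days come from its title. Nothing in the labels says whether a PH and a POA library came from the same mouse, and *P* values measure the spread between libraries.

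The values are a normalized signal on a linear scale, not counts, and the most frequent value, 22.1, was used as the floor of measurable expression, though values ran down to 9.94. The sums per library ran from 44.5 to 72.9 mega-units of signal and are not read totals, so depth is unknown. The floor itself differed between the regions, with 108 floor entries moving along 1 line that held 83.5% of its variance between PH and POA, and levels were not compared between regions. All 10 markers of the hypothalamus were at 2 times the floor or more in every library. PH 14-day replicate 5 stood apart from the other PH libraries on the surrogate variable SV1 (0.785, against at most 0.195). Some results that rest on it are given without it too, but not all.

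Elastic fibres have a core of cross-linked elastin laid onto a scaffold of fibrillin microfibrils. Lysyl oxidase cross-links the elastin, fibulins bring elastin and its cross-linking enzymes to the microfibril, and the latent TGF-β binding proteins hold inactive TGF-β in the same matrix. In the brain these fibres lie mainly in the walls of vessels and in the meninges. In bulk tissue, a change in the number of such cells and a change in RNA per cell cannot be told apart.

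*Fbln5*, *Thsd4* and *Ltbp2* are the members for which all libraries of an OVX group lay outside the range of the intact libraries, and the DNA upstream of their starts is shown for that reason. Over all genes, the share that did so ran from 0.145% to 0.555% by region, time and direction. For *Fbln5* the group was that of the POA at 4 months, on which the choice of the set rests. The sequences are from RefSeq (table build GRCm38.p6), whose table holds 13 promoters for 8 of the 10 members and none for *Eln* and *Lox*, and each was placed in GRCm39 by an exact match. All positions are in GRCm39. *Fbln5* lies on chromosome 12 (101712556 to 101785429, minus strand, 11 exons), *Thsd4* on chromosome 9 (59874214 to 60429329, minus strand, 17 exons) and *Ltbp2* on chromosome 12 (84829986 to 84923306, minus strand, 36 exons). Each run reads 5′ to 3′ on the gene's strand, ends at or before the start site and leaves out untranslated exon bases, and capitals mark GGTCA or its reverse complement TGACC, the half-site of the estrogen response element. The windows are chr12:101784744-101784992 and chr12:101785430-101785628 for *Fbln5*, chr9:60418319-60418568 for the upstream one of 2 *Thsd4* promoters, and chr12:84923307-84923515 for *Ltbp2*.
Fbln5 promoter 1: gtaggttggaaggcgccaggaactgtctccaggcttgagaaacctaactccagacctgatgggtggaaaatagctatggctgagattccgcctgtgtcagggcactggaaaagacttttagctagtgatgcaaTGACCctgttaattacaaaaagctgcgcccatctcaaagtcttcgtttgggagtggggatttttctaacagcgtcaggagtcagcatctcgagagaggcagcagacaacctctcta
Fbln5 promoter 2: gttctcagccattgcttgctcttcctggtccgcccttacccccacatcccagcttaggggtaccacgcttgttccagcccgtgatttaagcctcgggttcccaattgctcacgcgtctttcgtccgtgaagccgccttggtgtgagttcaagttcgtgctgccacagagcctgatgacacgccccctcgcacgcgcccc
Thsd4 promoter 2: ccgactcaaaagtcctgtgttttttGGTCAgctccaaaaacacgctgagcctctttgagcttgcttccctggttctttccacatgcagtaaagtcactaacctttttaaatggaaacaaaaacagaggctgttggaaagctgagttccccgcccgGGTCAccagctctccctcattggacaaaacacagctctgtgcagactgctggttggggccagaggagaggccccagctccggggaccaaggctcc
Ltbp2 promoter 1: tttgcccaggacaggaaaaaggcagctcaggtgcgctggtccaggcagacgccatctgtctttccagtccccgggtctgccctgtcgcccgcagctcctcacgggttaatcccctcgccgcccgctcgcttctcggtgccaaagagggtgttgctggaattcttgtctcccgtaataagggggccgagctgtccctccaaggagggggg

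Letters of the half-site were present 116 bases before the first *Fbln5* start and at 225 and 95 bases before the second *Thsd4* start. In the windows of 250 bases before the 13 start sites of members, GGTCA or TGACC occurred in 3, those of *Fbln5*, *Thsd4* and *Ltbp3*, against 35.2% of 32817 mouse promoters. The full element, GGTCA and TGACC with 3 bases between them, occurred in 0 of the 13, against 0.064% of all promoters. These matches describe the letters in the windows and nothing about binding. The second *Fbln5* start, 51 bases downstream of that of the canonical transcript, has 2 GC boxes (GGGCGG) in its window, a motif in 32.7% of all promoters, and *Ltbp2* has 2 as well. The other motifs searched, all on both strands, were the SMAD-binding CAGAC, present before 6 of the 13 starts and in 42.2% of all promoters, the AP-1 motif TGANTCA (6.75%) and TATAAA (12.4%).

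No member was called in the 4 comparisons that were tested, at a limma adjusted *P* under 0.05. Over all genes, the share called was 0% in the PH at 14 days, 0.0318% in the PH at 4 months, 0.00909% in the PH at 4 months against 14 days and 0.00468% in the POA at 14 days, so calls were rare for any gene. For the POA at 4 months the share was 0.0936% against intact and 0.0281% against 14 days, where members were not tested. At an unadjusted *P* under 0.05 the members numbered 2, 4, 0 and 1 of 10, where the shares of all genes were 3.04%, 6.07%, 4.09% and 6.13%. The median log2 difference of the 10 members was 0.23 in the PH at 14 days and 0.14 in the PH at 4 months, beside −0.00176 and −0.00931 over all genes. The 14-day value of the PH was 0.0887 without a covariate or with batch in place of SV1, 0.0984 with the replicate number as a block, and 0.141 without intact replicate 1. In the POA the median was 0.094 at 14 days and −0.045 at 4 months, beside −0.0059 and −0.0105. The members did not share 1 direction in either region. In the PH 7 were higher than intact and 3 lower at 14 days, and 8 and 2 at 4 months, where 49.4% and 47.2% of all genes were higher. In the POA these counts were 6 and 4, and 4 and 6, beside 47.8% and 46.5% higher.

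**Figure D1:**
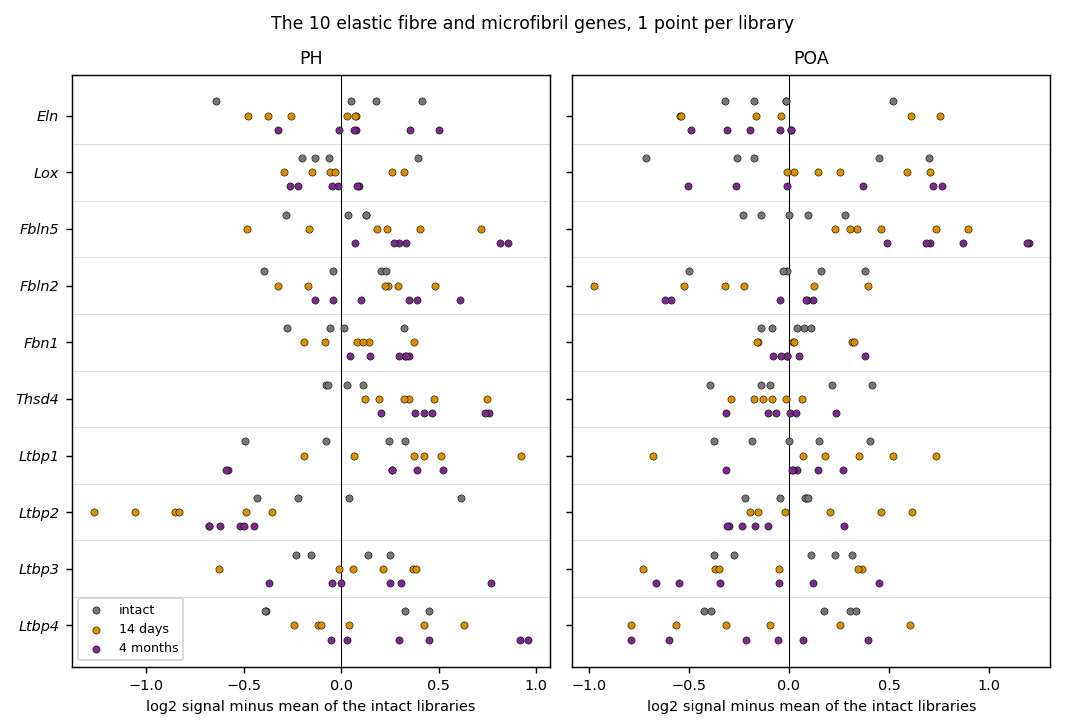
Log2 signal of each of the 10 genes (rows) in each of the 33 libraries, as the difference from the mean of the intact libraries of that region (x axis, log2 units); each point is 1 library, coloured by group, with PH left and POA right. *Fbln5* in the POA at 4 months (6 of 6 points to the right of the intact ones), *Thsd4* in the PH (6 of 6 at both times) and *Ltbp2* in the PH at 4 months (6 of 6 to the left) lie outside the range of the intact points, while the other genes overlap. The gap is narrow for *Thsd4* at 14 days and for *Ltbp2*. Over all genes, the share with an OVX group wholly above or wholly below the intact libraries ran from 0.145% to 0.555% by region, time and direction.

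*Eln* encodes tropoelastin, the soluble precursor of the elastic core (chromosome 5, 134731445 to 134776322, minus strand, 37 exons). Its PH signal ran from 181 to 376 in intact mice (median 305), 202 to 298 at 14 days (median 262) and 225 to 399 at 4 months (median 297). The 3 groups overlapped. The difference from intact was −0.07 ± 0.18 (log2, SE) at 14 days and 0.09 ± 0.18 at 4 months, both below their SE. In the POA the intact libraries ran from 239 to 427, the 14-day libraries from 204 to 502 and the 4-month libraries from 212 to 299, with differences of 0.10 ± 0.15 and −0.07 ± 0.15. The core gene of the fibre thus showed no difference beyond the spread between libraries, and the 95% interval at 14 days ran from −0.46 to 0.31 in the PH and from −0.22 to 0.42 for the POA.

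*Lox*, the enzyme that oxidizes lysines of elastin and collagen so that they cross-link, was close to the floor, with a median of 73.9 over the 33 libraries, or 3.35 times the floor. PH libraries ran from 67.2 to 101 in intact mice, 62.9 to 96.4 at 14 days and 64.3 to 82.2 at 4 months. POA libraries ran from 37.3 to 99.4, 60.8 to 99.9 and 43.2 to 104. The groups overlapped throughout. Differences from intact were −0.08 ± 0.14 and −0.04 ± 0.13 for PH tissue and 0.23 ± 0.25 and 0.12 ± 0.25 for POA tissue, each smaller than its SE.

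*Fbln5* encodes fibulin-5, which binds elastin and carries cross-linking enzymes to the growing fibre. In the POA, its signal was 555, 521, 654, 743 and 611 in the 5 intact libraries. At 14 days it ran from 718 to 1136 (median 809) and at 4 months from 859 to 1404 (median 1059). All 6 libraries at 4 months lay above the highest intact library, and 5 of 6 did at 14 days. The group means were 617 ± 87.1 for intact mice, 874 ± 167 for 14 days and 1127 ± 227 for 4 months (SD, n = 5, 6 and 6).

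The *Fbln5* difference in the POA at 4 months against intact, the one that led to the choice of these genes, was 0.86 on the log2 scale (SE 0.15), or 81.4% higher. Within batch 1 it was 1.22 and within batch 2 0.56, without overlap in either. Over all genes, 0.412% had all 4-month POA libraries above the intact ones and 0.253% had all below. At 14 days these shares were 0.262% and 0.145%, and no member was among them. The POA difference at 14 days, which has the same 5 intact libraries, was 0.50 (SE 0.15, 41.1% higher, 0.62 in batch 1 and 0.43 in batch 2). Its 95% interval was 0.19 to 0.80 and its limma adjusted *P* over all genes 0.732, so it was not called.

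In the PH, *Fbln5* was 579, 770, 722 and 770 in the intact libraries. At 14 days it ran from 504 to 1162 (median 817), and at 4 months from 740 to 1277 (median 878). The groups overlapped at both times, with 5 of 6 libraries above all intact ones at 4 months and 4 of 6 at 14 days. The difference was 0.42 ± 0.18 (SE) at 4 months (95% interval 0.03 to 0.80, limma adjusted *P* = 0.795), with 0.49 and 0.39 within the batches. At 14 days it was 0.24 ± 0.19, and the batches had opposite signs, at 0.46 and −0.16. The lowest PH library of all was 14-day replicate 5, at 504, which is in batch 2 and so has a part in the −0.16. Tested directly, the 14-day differences of the regions did not differ past the threshold (PH minus POA −0.32 ± 0.25, limma adjusted *P* = 0.99996).

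**Figure D2:**
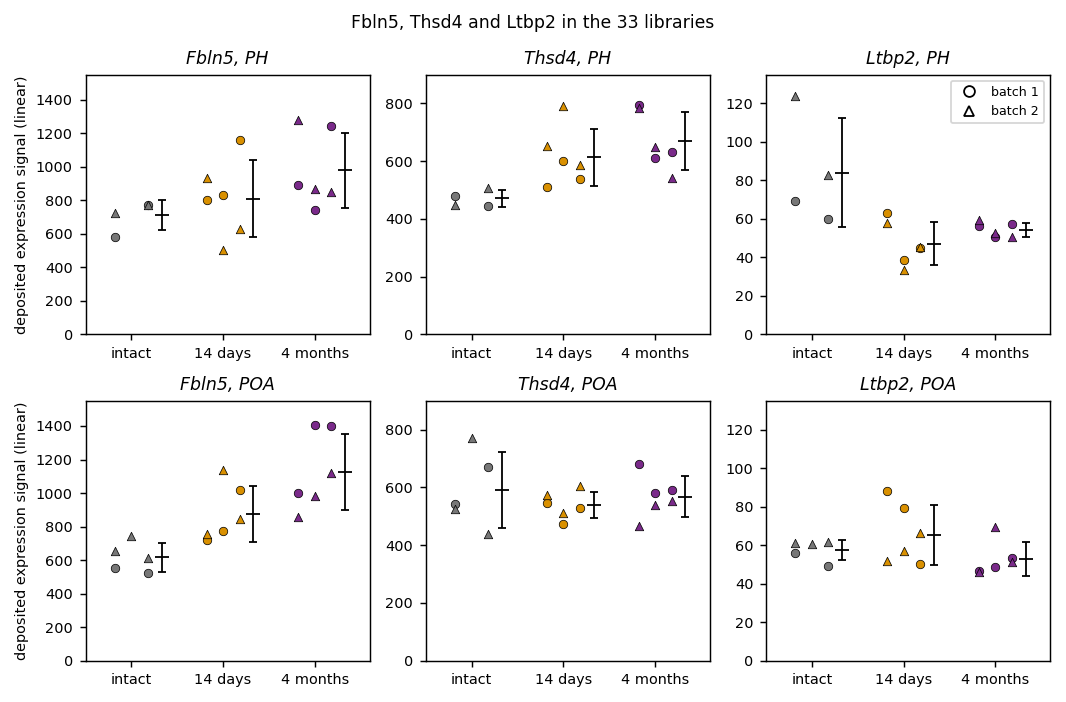
Deposited expression signal (linear, y axis) of *Fbln5*, *Thsd4* and *Ltbp2* in each library of the PH (top) and POA (bottom); circles are batch 1, triangles batch 2, and the bars beside the points give the group mean ± SD. *Fbln5* in the POA has a highest intact value of 743 and a lowest 4-month value of 859, *Thsd4* in the PH has all intact values at or below 508 and all others at or above 511, and *Ltbp2* in the PH has all 4-month values below the lowest intact value of 59.9.

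The summed endothelial signal was outside the intact range at 4 months in all PH libraries but not in all POA ones. The sum of 6 markers (*Cldn5*, *Pecam1*, *Flt1*, *Cdh5*, *Ly6c1* and *Slco1a4*) ran from 7698 to 8235 in intact PH, 8006 to 10650 at 14 days and 8939 to 12103 at 4 months, the last without overlap. In the POA the sum ran from 7803 to 8729 in intact mice, 8043 to 8773 at 14 days and 7973 to 10880 at 4 months, when 4 of 6 libraries were above the intact range. The other POA libraries at that time, replicates 4 and 6, had sums of 7973 and 8261, within the intact range, and *Fbln5* signals of 859 and 1118, above it. Among the 4-month POA libraries, replicate 2 had both the highest endothelial sum, 10880, and the highest *Fbln5* signal, 1404. Replicate 4 had the lowest of both. The highest endothelial sum of the PH, 12103, was in 4-month replicate 3 with an *Fbln5* signal of 1243, while replicate 4, with the highest *Fbln5* signal of 1277, had a sum of 9163. Pericyte markers, 6 in number, summed to 6891 to 8716, 7313 to 8924 and 8069 to 10596 in the POA, and to 7434 to 8182, 7482 to 11287 and 7081 to 10893 in the PH. The 11287 was that of 14-day replicate 5. Of the 6 endothelial markers, 5 were higher than intact and 1 lower at each time in each region, and none was called. In the POA the lower one had a limma unadjusted *P* under 0.05 at each time. All 6 pericyte markers were higher than intact at 4 months in both regions. At 14 days 5 of them were higher in the PH and 3 in the POA. *Flt1*, a VEGF receptor picked after its values were seen, differed at 4 months by 0.59 ± 0.14 in the PH (limma adjusted *P* = 0.225) and 0.41 ± 0.09 for the POA (adjusted *P* = 0.146). The 5 arterial endothelial markers overlapped between groups. They summed to 1798 to 1931 in intact PH and 1759 to 2162 at 4 months, and to 1904 to 2334 and 1714 to 2329 in the POA. In the POA 4 of the 5 were lower than intact at each time. In the PH all 5 were higher at 14 days and 4 of the 5 at 4 months. The microglial signal also moved with the groups. Its 7 markers summed to 8185 to 9085 in intact PH and 9327 to 11993 at 4 months, without overlap. For the POA these sums were 8554 to 9668 and 9248 to 11705, with overlap, and each of the 7 was higher than intact at both times in both regions. The part of these cell types in the *Fbln5* difference was not tested.

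Summed meningeal and muscle markers overlapped between groups, though many single markers were higher after OVX. The sum of 9 fibroblast and meninges markers ran from 7548 to 14241 in intact PH and 8497 to 12362 at 4 months. In the POA it ran from 7110 to 14094 in intact mice (median 7531), 9281 to 16052 at 14 days (9968) and 7849 to 12317 at 4 months (10011). Of the 9, 8 were higher than intact in the POA at each time, with median log2 differences of 0.36 and 0.15. In the PH 5 were higher at 14 days and 4 at 4 months. Their part in the *Fbln5* difference was not tested. The 6 smooth muscle markers, 5 of them at 2 times the floor or more in every library, summed to 1364 to 1795 in intact PH and 1562 to 2067 at 4 months, and to 1180 to 1820 and 1307 to 1868 in the POA. All 6 were higher than intact in the PH at both times, and 5 of 6 in the POA. Choroid plexus markers varied far more, from 2601 to 86978 over the 33 libraries, with every group spanning a wide range. The only marker of any list that was called in any comparison was the microglial *C1qa*, a complement component, in the POA at 4 months (0.43 ± 0.08, limma adjusted *P* = 0.0428).

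**Figure D3:**
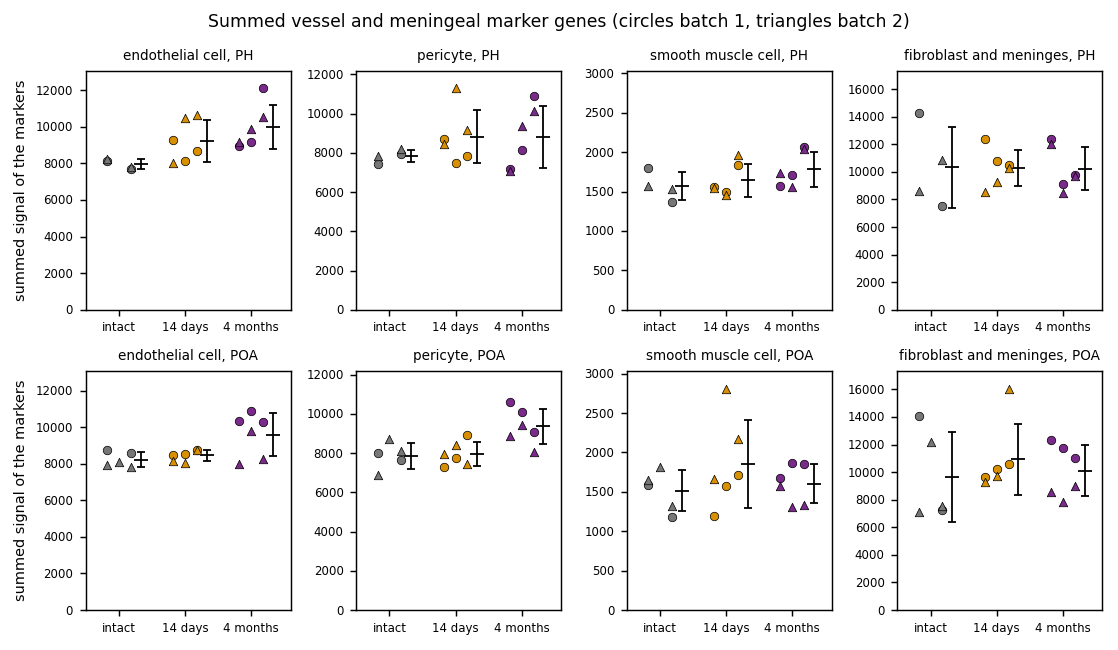
Summed deposited signal (linear, y axis) of endothelial, pericyte, smooth muscle, and fibroblast and meninges markers in each PH (top) and POA (bottom) library, by group; circles are batch 1, triangles batch 2, and bars give the mean ± SD. Endothelial sums in the PH do not overlap between intact (at most 8235) and 4 months (at least 8939), while fibroblast and meninges sums overlap between all groups.

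*Fbln2*, the gene of fibulin-2, a partner of fibrillin and elastin in vessel walls, lies on chromosome 6 (91189437 to 91249522, plus strand, 18 exons). Its PH signal had medians of 180, 199 and 198 in intact, 14-day and 4-month mice and spanned 129 to 258 overall. In the POA the medians were 207, 172 and 211 over a span of 106 to 273. The groups overlapped, and the differences took opposite signs in the regions, at 0.22 ± 0.17 and 0.19 ± 0.16 (log2, SE) for the PH against −0.19 ± 0.19 and −0.09 ± 0.19 for the POA. Tested directly, the PH difference at 14 days exceeded that of the POA by 0.45 ± 0.26 (limma adjusted *P* = 0.99996).

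*Fbn1* encodes fibrillin-1, the main microfibril protein (chromosome 2, 125142514 to 125349913, minus strand, 65 exons). It varied least of the 10, with 1.72-fold between the lowest and highest of the 33 libraries. In the PH, intact libraries ran from 387 to 588 (median 463) and 4-month libraries from 486 to 598 (median 584), a difference of 0.24 ± 0.12 (95% interval −0.01 to 0.49, limma adjusted *P* = 0.828). The groups overlapped, with 3 of 6 libraries above all intact ones. At 14 days the PH difference was 0.11 ± 0.12. The POA differences were 0.09 ± 0.09 and 0.08 ± 0.09.

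*Thsd4* encodes a secreted ADAMTS-like protein that binds fibrillin and promotes microfibril assembly. The study's own text names it from these libraries, so its values are not independent evidence of a direction. In intact PH its signal was 480, 446, 449 and 508. At 14 days it ran from 511 to 790 (median 593), and at 4 months from 541 to 796 (median 640). Neither OVX group overlapped the intact one, though the gap at 14 days was only from 508 to 511.

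The *Thsd4* difference in the PH was 0.32 ± 0.12 at 14 days (95% interval 0.06 to 0.57, limma adjusted *P* = 0.99986) and 0.51 ± 0.12 at 4 months (42.2% higher, 0.26 to 0.76, adjusted *P* = 0.225). It had the same sign in both batches, at 0.24 and 0.49 for 14 days and 0.54 and 0.45 for 4 months. Over all genes, 0.277% had all 14-day PH libraries above the intact ones and 0.296% all below, and 0.555% had all 4-month libraries above. *Thsd4* was the single member to do so at either time. Its highest 14-day value, 790, was that of PH 14-day replicate 5. The endothelial and microglial sums given with *Fbln5* also separated intact from 4-month PH libraries, and their part in the *Thsd4* difference was not tested.

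The POA showed no such step in *Thsd4*. Intact POA libraries ran from 440 to 772, 14-day libraries from 473 to 605 and 4-month libraries from 465 to 681, and the intact group had the widest spread. The differences were −0.11 ± 0.12 and −0.04 ± 0.12. The 14-day difference in the PH exceeded that in the POA by 0.45 ± 0.17 (limma adjusted *P* = 0.99996). Of 22135 genes, 1 was called in that test of the regions and 662 had an unadjusted *P* under 0.05. The *Thsd4* locus contains or overlaps 7 other annotated genes, none of them protein coding, and the strand setting of the counting is not given in the sources used here.

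*Ltbp1* and the other 3 latent TGF-β binding proteins tie the inactive TGF-β complex, or in the case of *Ltbp2* only the matrix itself, to fibrillin. *Ltbp1* (chromosome 17, 75312519 to 75699507, plus strand, 30 exons) ran from 213 to 376 in intact PH, 263 to 569 at 14 days and 199 to 432 at 4 months. In the POA it ran from 242 to 415, 195 to 520 and 252 to 378. The groups overlapped in both regions. The differences at 14 days were 0.32 ± 0.26 in the PH and 0.21 ± 0.20 for the POA, and at 4 months 0.05 ± 0.25 and 0.05 ± 0.20. The highest PH value, 569, was that of 14-day replicate 5, and the next, 432, was that of a 4-month library.

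*Ltbp2* encodes the one member of its family that does not bind latent TGF-β, and it was the lowest of the 10 genes, with a median of 56.3 or 2.55 times the floor. In intact PH its signal was 69.2, 59.9, 124 and 82.9. At 14 days it ran from 33.5 to 63.2 (median 45.0), and at 4 months from 50.4 to 59.2 (median 54.5). Every 4-month library lay below every intact one, though the gap was only from 59.2 to 59.9. At 14 days 5 of 6 did, and replicate 1 at 63.2 overlapped. *Ltbp2* was the single member lower without overlap at 4 months, and 0.396% of all genes were.

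The *Ltbp2* difference was −0.73 ± 0.19 at 14 days (95% interval −1.12 to −0.33, limma adjusted *P* = 0.99986) and −0.60 ± 0.18 at 4 months (−0.98 to −0.21, adjusted *P* = 0.544). It was negative within both batches, at −0.43 and −1.19 for 14 days and −0.24 and −0.91 for 4 months. With a pseudocount of 100 added before the log it was −0.29 and −0.25, and without intact replicate 3, whose 124 was the highest of all, the 4-month difference was −0.41. In the POA, intact libraries ran from 49.4 to 61.5, 14-day libraries from 50.2 to 88.1 and 4-month libraries from 46.3 to 69.7, with differences of 0.16 ± 0.15 and −0.13 ± 0.15. The 14-day difference in the PH was below that in the POA by 0.93 on the log2 scale (interaction −0.93 ± 0.24, limma adjusted *P* = 0.99996). That test took the libraries of the regions as independent. With libraries of the same group and number in the regions allowed to correlate, a fit chosen after seeing the data, it was −0.93 ± 0.23 (limma adjusted *P* = 0.999). The start of *Ltbp2* lies opposite the noncoding gene *D030025P21Rik*, and how the counting treated strand is not given in the sources used here.

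*Ltbp3* and *Ltbp4* hold latent TGF-β in the matrix, and the protein of *Ltbp4* also binds fibulin-5 and takes part in elastin assembly. They had the highest signal of the 10 genes. Per kilobase of canonical transcript, the median signal over the 33 libraries, with the floor left in, was 406 for *Ltbp3* and 353 for *Ltbp4*, followed by 134 for *Fbln5* and 72.3 for *Eln*. *Thsd4* at 65.0, *Ltbp1* at 62.4, *Fbn1* at 43.3 and *Fbln2* at 41.4 came next, and *Lox* at 15.5 and *Ltbp2* at 8.32 were last. These levels rank the deposited signal per kilobase in whole tissue. Whether that signal was already scaled to transcript length is unknown, so they need not rank expression. Neighbours such as *Thsd4* and *Ltbp1*, or *Fbn1* and *Fbln2*, were closer than the spread of either gene across libraries. *Ltbp3* lies on chromosome 19 (5790932 to 5808669, plus strand, 27 exons).

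In the PH, *Ltbp4* (chromosome 7, 27004086 to 27037117, minus strand, 29 exons) was 1049, 1043, 1874 and 1715 in the intact libraries. It ran from 1158 to 2116 at 14 days and from 1323 to 2662 at 4 months, and the groups overlapped. The intact libraries of batch 1 were those at 1043 and 1049, and those of batch 2 at 1715 and 1874. Within batch 1, all 14-day libraries (1259 to 1405) and all 4-month libraries (1323 to 1679) were above the intact ones, by 0.33 and 0.48 on the log2 scale. Within batch 2 the differences were −0.12 and 0.39, and the −0.12 includes 14-day replicate 5, the lowest 14-day library at 1158. With SV1 in the fit, the PH difference was 0.27 ± 0.18 at 14 days and 0.39 ± 0.17 at 4 months (95% interval 0.02 to 0.75, limma adjusted *P* = 0.795). For the POA it was −0.02 ± 0.09 and −0.06 ± 0.09.

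*Ltbp3* ran from 1691 to 2366 in intact PH, 1288 to 2598 at 14 days and 1537 to 3384 at 4 months. The lowest PH value, 1288, was again 14-day replicate 5. The *Ltbp3* differences were 0.24 ± 0.12 (limma adjusted *P* = 0.99986) and 0.10 ± 0.12 in the PH. Those of the POA were −0.02 ± 0.08 and −0.05 ± 0.08. The intact POA libraries ran from 1837 to 2958, and the OVX libraries from 1437 to 3256, so all groups overlapped.

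In the POA, *Ltbp3* and *Ltbp4* differed between the batches. *Ltbp3* ran from 1437 to 1968 in the 8 libraries of batch 1 and from 2297 to 3256 in the 9 of batch 2, and *Ltbp4* from 1032 to 1535 and from 1668 to 2712. Neither gene overlapped between batches, with mean differences of 0.66 and 0.73 on the log2 scale, and they were the members of the set for which that held. Over all genes, 12.7% had no overlap between the batches in the POA and 0.546% in the PH. Each group has libraries in both batches, so the batch difference did not coincide with the groups. In the PH the batch difference was 0.30 for *Ltbp3* and 0.58 for *Ltbp4*, with overlap.

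**Figure D4:**
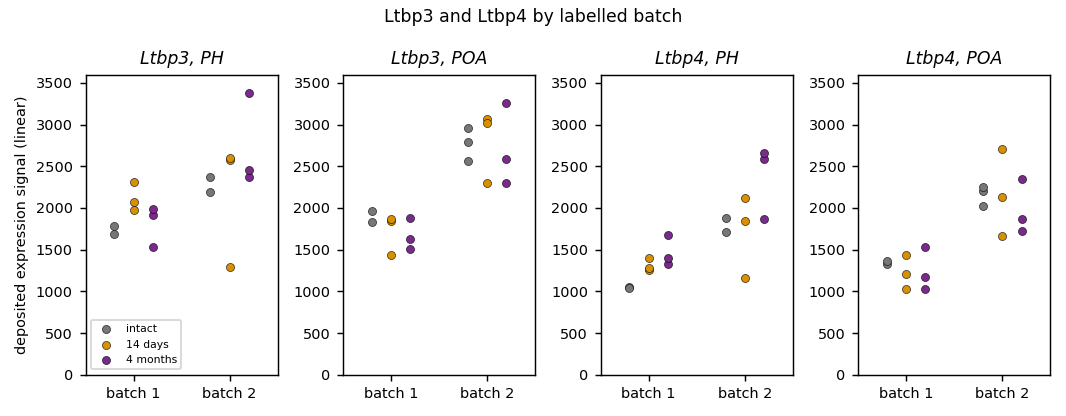
Deposited expression signal (linear, y axis) of *Ltbp3* and *Ltbp4* in each library, by batch (x axis), region (panel) and group (colour); each point is 1 library. In the POA all batch 2 points (at least 2297 for *Ltbp3* and 1668 for *Ltbp4*) lie above all batch 1 points (at most 1968 and 1535), with intact, 14-day and 4-month points mixed within each batch.

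PH 14-day replicate 5 lay outside the range of the other 15 PH libraries for 4 of the 10 genes, below for *Fbln5*, *Ltbp2* and *Ltbp3* and above for *Ltbp1*. Without it, no further member had 14-day PH libraries that all lay outside the range of the intact ones. *Thsd4* already did so with it, which leaving out a library cannot undo. The shares of all genes without it were 0.573% higher and 0.537% lower. Without any covariate, the PH differences of *Fbln5*, *Ltbp3* and *Ltbp4* at 14 days were 0.15, 0.07 and 0.10, where they were 0.24, 0.24 and 0.27 with SV1.

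**Figure D5:**
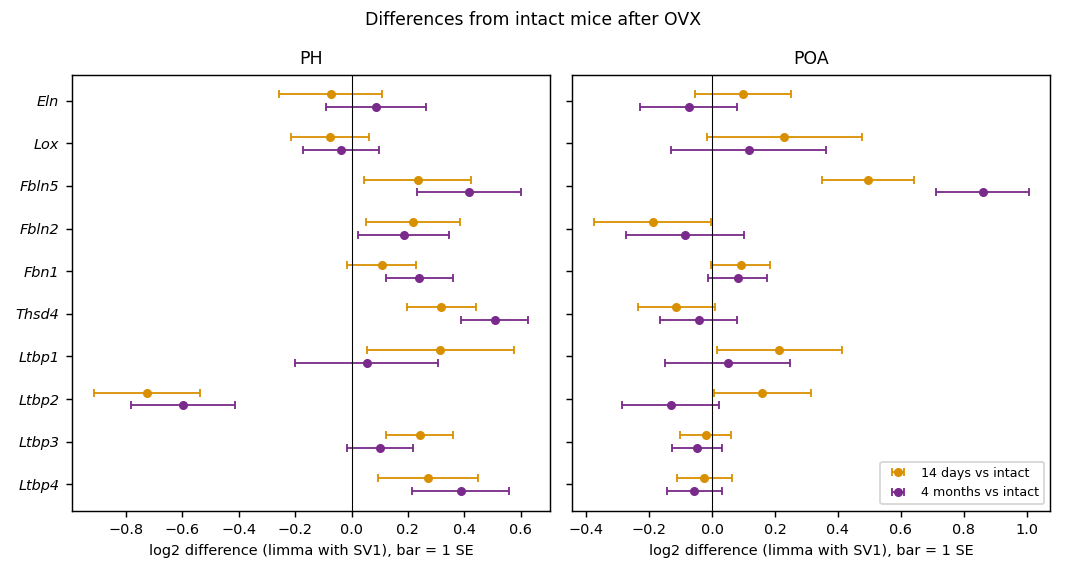
Log2 difference from intact (x axis) of each of the 10 genes (rows) at each time after OVX in the PH (left) and POA (right), fitted with limma and SV1; bars are 1 SE. *Fbln5* has positive values in all 4 comparisons (0.24 and 0.42 in the PH, 0.50 and 0.86 in the POA), *Ltbp2* is at −0.73 and −0.60 in the PH, and *Thsd4* is at 0.32 and 0.51 there but −0.11 and −0.04 in the POA.

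Between 14 days and 4 months, no member differed at an unadjusted *P* under 0.05 in the PH. The differences there ran from −0.26 ± 0.24 for *Ltbp1* to 0.19 ± 0.11 for *Thsd4*. In the POA, given as a description, *Fbln5* was 0.36 ± 0.14 higher at 4 months than at 14 days, *Ltbp2* was lower at −0.29 ± 0.15, and the other 8 lay between −0.17 and 0.10. *Fbln5* had 2 of 6 libraries at 4 months above all 14-day libraries. No member separated the OVX groups without overlap, where 0.127% of all genes did so upward and 0.109% downward in the PH, and 0.0702% and 0.0421% for the POA. These comparisons share their OVX libraries with those against intact mice.

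The 10 genes did not vary as a unit across libraries. With batch means removed, 21 of the 45 pairs of members had a positive Pearson correlation in both regions, 7 a negative one in both and 17 opposite signs, over 16 PH and 17 POA libraries. The median over the pairs was 0.054 in the PH and 0.18 for the POA. The pair *Ltbp3* and *Ltbp4* was the highest in each region, at 0.76 and 0.83, and it fell to 0.49 in the PH without 14-day replicate 5, below 4 other pairs. *Fbln5* and *Ltbp4* were at 0.74 in the PH (0.64 without that library, then the highest pair) and −0.13 for the POA, and *Fbln5* and *Eln* at 0.38 (0.16 without it) and 0.18. Group means were left in and libraries share their processing, so these values are a description.

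The genes whose pattern across libraries was most like that of *Fbln5*, by the lower of the PH and POA correlations among 21215 genes with batch means removed, were *Hbb-bt*, *Lrrc32*, *Depp1*, *Xkr8* and *Pcdhga2*. Group means were left in, among them the 4-month POA values of *Fbln5* that led to the choice of the members. A gene can thus rank high by differing between the groups as *Fbln5* does, and the ranking is a description. *Hbb-bt*, a β-globin of red cells, had r = 0.73 in the PH and 0.69 for the POA. *Lrrc32*, which docks latent TGF-β on the cell surface, had 0.72 and 0.69, and *Depp1*, a FOXO target, had 0.77 and 0.68. *Xkr8*, a phospholipid scramblase, had 0.71 and 0.68, and the protocadherin *Pcdhga2* had 0.72 and 0.68. Leaving out PH 14-day replicate 5 gave PH values from 0.58 to 0.69 for the 5. Their OVX differences were not all alike, as *Hbb-bt* was 1.53 ± 0.30 higher in the PH at 4 months and *Xkr8* 0.04 ± 0.10.

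The wider pathway was described with 3 lists of other genes. Of 29 other elastic fibre and microfibril genes, none was called in any of the 6 comparisons (28 were tested in the POA, where *Emilin3* was too low). In the PH at 4 months, 15 were higher and 14 lower, with a median of 0.014, and in the POA 14 and 14, with a median of 0.0011. The fibulin-3 gene *Efemp1* was 0.40 ± 0.22 higher in the PH and 0.39 ± 0.18 for the POA at 4 months, and *Fn1*, the fibronectin gene, was 0.42 ± 0.17 higher in the PH (limma adjusted *P* = 0.729). The metalloprotease gene *Adamts17* was lower in both, at −0.60 ± 0.30 and −0.49 ± 0.22, with adjusted *P* of 0.833 and 0.557. At 14 days the widest difference was −0.37 ± 0.17 for *Mfap5*, a microfibril-associated glycoprotein gene, in the PH. In POA libraries it was 0.37 ± 0.24 for *Dcn*, the decorin gene. *Dcn* is also on the list of fibroblast markers.

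None of 27 TGF-β ligands, activators, receptors, Smads and targets was called either. At 4 months in the PH, 21 were higher and 6 lower, with a median of 0.091 beside −0.0093 over all genes. In the POA 12 were higher and 15 lower, with a median of −0.036 beside −0.0105. At a limma unadjusted *P* under 0.05 the POA had 2 higher and 3 lower at 4 months, and 1 and 3 at 14 days. Each gene named below was higher in the comparison given for it, so these genes do not stand for the list in the POA. *Smad6*, an inhibitory Smad, was 77.0 ± 9.41 (SD, n = 4) in intact PH and 129 ± 44.9 (n = 6) at 4 months, with 6 of 6 libraries above all intact ones (0.67 ± 0.20 SE, limma adjusted *P* = 0.518). The ligand gene *Tgfb1* was 0.38 ± 0.14 higher in the PH (adjusted *P* = 0.680) and 0.35 ± 0.17 for the POA. *Lrrc32*, named above beside *Fbln5*, was 0.43 ± 0.15 higher in the POA at 4 months (adjusted *P* = 0.398) and 0.05 ± 0.14 in the PH. At 14 days the widest were *Itgb6*, an integrin subunit that activates TGF-β, at 0.29 ± 0.26 in the PH, and the receptor *Tgfbr2* at 0.26 ± 0.11 for the POA.

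The 16 proteases and inhibitors that act on elastin or its matrix included no called gene. At 4 months, *Serpina3n*, a protease inhibitor known from reactive astrocytes, was 853 ± 96.2 (SD, n = 4) in intact PH and 1400 ± 267 (n = 6), a difference of 0.70 ± 0.13 (SE) with limma adjusted *P* = 0.0841, and 6 of 6 libraries were above all intact ones. In the POA it differed by 0.10 ± 0.06. *Ctss*, the elastin-degrading cathepsin S of microglia, was higher in the POA at 4 months by 0.34 ± 0.07 (adjusted *P* = 0.0936, 5 of 6 above) and by 0.24 ± 0.07 at 14 days (adjusted *P* = 0.732). In the PH at 4 months *Ctss* was 0.46 ± 0.09 higher (adjusted *P* = 0.114), and the microglial marker *C1qa* was 0.40 ± 0.08 higher there (adjusted *P* = 0.139). The part of microglial markers in the *Ctss* difference was not tested. *Adamts1*, a protease of proteoglycans, was 0.58 ± 0.16 higher in the PH (adjusted *P* = 0.420) and 0.61 ± 0.16 for the POA (adjusted *P* = 0.221) at 4 months, but −0.03 ± 0.17 and −0.02 ± 0.16 at 14 days. In the whole list 10 were higher and 6 lower at 4 months in each region, with 0 called.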

How the data were processed

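Each of the 33 mouse PH and POA libraries took its group from its labels. The authors dissected frozen tissue, prepared stranded mRNA libraries, pseudoaligned reads with kallisto, imported them with tximport and used DESeq2 with a smartSVA surrogate variable, on mm39 and GENCODE M30. The deposited values are a linear normalized signal. How they were derived from counts is not given in the sources used here, and reads cannot be recovered. Unnamed entries (1259, or 2.94%) were dropped.

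Log2 values were fitted with limma (version 3.58.1, R 4.3.3; trend, robust) with a term for each of the 3 groups, per region, plus SV1, which was estimated by 5 rounds of iteratively reweighted surrogate variable analysis. Genes reaching 2 times the floor in at least 4 (PH) or 5 (POA) libraries were tested, and *P* values were adjusted by Benjamini-Hochberg over all of them. Intervals are at 95%. The region difference at 14 days was an interaction in 1 fit of all libraries. The fit was also run on simulated data with normal noise, 1 random factor and changes in the 4-month group only. These held no batch and no single library standing apart, so that run cannot show how the fit handles either. Positions come from GENCODE M39 (GRCm39), where 972 of 41565 symbols were absent. The members and lists were chosen with earlier results of these data known. The named genes are the members, any called list gene, up to 3 list genes with the widest differences per comparison, and the 5 genes most like *Fbln5*. Alternatives were no covariate, batch, SV1 with batch, a replicate block, 2 groups only, no filter, a pseudocount of 100, median centring and each library left out. Python 3.11.15 with pandas 2.3.3 and matplotlib 3.10.9 was used for sequences and figures.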

Additional observations from a re-analysis of the deposited data

Results flagged for a closer look

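In 60 groups of 4 to 6 libraries (10 genes, 6 groups), 2 single libraries were farther from the rest than Dixon's 95% limit for their group allows, where chance alone gives about 1 in 20 groups. *Fbn1* was 668 in POA 4-month replicate 4, and the next highest of the 6 libraries was 532. *Ltbp2* was 69.7 in POA 4-month replicate 5, and the next highest was 53.6. Both belong to groups whose differences from intact mice are given above without a test.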

How the results depend on the processing

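No member was called under any alternative, or with any library left out, in the 4 tested comparisons. Of 128 counts and medians recomputed under other settings, 126 stayed within 1.5 times (counts) or within 1 SD between libraries (medians). The other 2 were the median of the members in the PH at 14 days, 0.0887 with no covariate or with batch in place of SV1, where it was 0.227 with SV1. Among the 126, the 14-day medians with the replicate block were 0.0984 in the PH and 0.0117 for the POA, where the latter was 0.094 without the block. With POA 14-day replicate 6 left out, that of the POA was 0.0221. The cause was not tested.

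In the tested comparisons, single members changed sign as follows. With no covariate or with batch alone, *Lox* was 0.00818 in the PH at 14 days, and for 4 months against 14 days in the PH *Lox* was −0.0703, *Fbln2* 0.0881 and *Ltbp3* 0.0835. With SV1 and batch, *Ltbp4* was 0.0237 in the POA at 14 days. With only the 2 groups compared, *Ltbp1* was −0.00997 in the PH at 4 months.

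The labels do not say what a replicate number marks. Deviations of same-numbered libraries of different groups correlated over 0.1 in 9 of 14 PH and 14 of 16 POA pairs, with medians of 0.154 and 0.255 against −0.0507 and −0.155 for other pairs. These deviations were taken from group means with the batch left in, and libraries of the same number mostly share a batch. A part of the number and a part of the batch therefore cannot be told apart in these correlations. Since not every pair was over 0.1, the numbers were not taken as pairs. Between the regions, 14 of 16 libraries of the same group and number were over 0.1 (median 0.241, against −0.0206 for other pairs). The batch was left in here too, and libraries of the same group and number always share it. With a block for these, the region differences of the 10 members at 14 days kept their signs and none was called. With the number as a block, *Ltbp1* was −0.132 in the PH at 4 months and *Lox* −0.0681 in the POA at 14 days, *Fbln5* was 0.573 in the PH at 4 months (limma adjusted *P* = 0.282, against 0.795 without the block), and 0 members were called.

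With 1 library left out in turn, signs changed in the tested comparisons for *Eln* (−0.286 to 0.0367 in the PH at 14 days, −0.122 to 0.21 at 4 months, −0.00907 to 0.172 in the POA at 14 days), *Lox* (−0.148 to 0.037, −0.109 to 0.0534 and, for 4 months against 14 days, −0.00632 to 0.0946, all PH), *Fbln2* (PH, 4 months against 14 days, −0.199 to 0.0318), *Ltbp1* (PH, 4 months, −0.109 to 0.217), *Ltbp3* (POA, 14 days, −0.0648 to 0.0285) and *Ltbp4* (POA, 14 days, −0.0899 to 0.0409). *Fbln5* in the POA ran from 0.79 to 0.94 at 4 months. That contrast, not tested, led to the choice of the genes, so the range adds no support. At 14 days, with the same intact libraries, *Fbln5* in the POA ran from 0.40 to 0.56. *Thsd4* in the PH ran from 0.45 to 0.56 at 4 months. The values hold no counts, so how depth limits them cannot be computed. In the POA at 4 months against intact, given without a test, signs changed with SV1 and batch for *Eln* (0.0198), *Thsd4* (0.0125), *Ltbp4* (0.00948) and the median of the members (0.0162), with the replicate block for *Lox* (−0.199), *Ltbp1* (−0.0321) and *Ltbp2* (0.00266), and with only the 2 groups for *Ltbp1* (−0.00698). With 1 library left out they changed for *Thsd4* (−0.135 to 0.0619), *Fbln2* (−0.174 to 0.0319), *Lox* (−0.0222 to 0.319), *Ltbp1* (−0.0448 to 0.194) and the median (−0.0792 to 0.018). For 4 months against 14 days in the POA they changed for *Fbln2* (−0.0139 to 0.197), *Fbn1* (−0.0661 to 0.0304), *Ltbp3* (−0.085 to 0.00916), *Ltbp4* (−0.0899 to 0.0351) and the median (−0.0804 to 0.0124). The libraries without PH 14-day replicate 5 were compared after seeing the data.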
